A study of Mus musculus with 6 samples.

Results

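The mitochondrial carrier family (SLC25) and the uncoupling proteins that belong to it were examined in the mouse heart at postnatal day 14 (P14) against postnatal day 1 (P1). Members were the rows of the gene count table whose symbol was Slc25a followed by a number, or Ucp1, Ucp2 or Ucp3. The rule found 39 genes of 14495 in the table. All 39 also passed the filter on low counts and were among the 14301 genes tested. The table held no gene with a total under 60 counts over the 6 libraries, and the filter removed 194 genes.

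The P14 group and the P1 group were ventricles of male mice, given in the labels as strain C57BL/6 and in the protocol text as C57BL/6J, with no treatment or genetic change named for either age. Each age had 3 libraries of polyadenylated RNA, and each library was a pool of 3 hearts, so that n = 3 counts pools and not animals. The labels name the left ventricle as tissue, whereas the protocol text describes both ventricles with the septum and without atria.

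SLC25 proteins are small carriers that span the mitochondrial inner membrane and exchange nucleotides, phosphate, amino acids, carboxylates, cofactors and acylcarnitines between the matrix and the cytosol. In heart muscle the adenine nucleotide translocases export ATP in exchange for ADP, the phosphate carrier supplies the phosphate for ATP synthesis, and other carriers serve fatty acid oxidation and the transfer of cytosolic reducing equivalents. After birth the heart is known to turn towards mitochondrial oxidation of fatty acids, and cardiomyocytes leave the cell cycle.

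Library totals ran from 9104230 to 15725993 counts at P14 and from 5916557 to 17353933 at P1. Levels are given as CPM, the count of a gene scaled to a common library size, with library totals corrected by TMM, a method that takes most genes as unchanged. A gene is said to have risen or fallen at P14 where edgeR's quasi-likelihood test gave an adjusted p under 0.05 over all genes tested, and log2 fold changes are P14 over P1, given ± SE. Levels are given as mean ± SD over 3 libraries. Over all genes the log2 fold change had a median of −0.01 with TMM, and of −0.47 when library totals alone were used for scaling, a shift of −0.46 that applies to every fold change below. Of the marker lists, cardiomyocyte genes rose in 6 of 8 tested and summed to between 62518 and 68727 CPM at P14 and between 39532 and 44413 CPM at P1. Within this list Ttn and Ryr2 were lowest in replicate 1 at both ages. Ttn had 1798, 8561 and 7209 CPM at P14 and 910, 2375 and 3075 CPM at P1. Ryr2 had 541, 1231 and 1274 CPM at P14 and 260, 568 and 541 CPM at P1. Tnnt2 and Tnni3 were highest in replicate 1 at both ages. The cause, RNA quality included, was not tested. Endothelial markers summed to 679 to 759 CPM at P14 and 615 to 728 CPM at P1, with 2 of 7 rising (Tie1 and Vwf) and none falling. Their directions were mixed, with a median log2 fold change of −0.17. Pecam1, Cdh5, Tek and Emcn were lower at P14 and Kdr higher, without passing the test. Fibroblast markers summed to 1622 to 2344 CPM at P14 and 1577 to 2147 CPM at P1, a sum that hid opposite changes. Of 7 fibroblast markers 1 rose, Dcn (363 CPM at P14 and 144 CPM at P1, log2 fold change 1.33). Postn was the 1 that fell (94.2 CPM at P14 and 475 CPM at P1, −2.33). In such bulk tissue, fewer cells of a type and less RNA per cell cannot be told apart.

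Of the 39 members, 17 rose at P14, 6 fell and 16 did not pass the test. Over all genes tested, 21.8% rose and 22.0% fell. The median log2 fold change of the members was 0.44. For 20 members all P14 libraries lay above all P1 libraries, against 27.3% of all genes, and for 7 members all lay below, against 27.5% of all genes. Together the members took 1.51%, 1.35% and 1.27% of the counts in the P14 libraries, against 0.931%, 0.955% and 0.802% in the P1 libraries, and the groups did not overlap. Most of that difference was Slc25a4: without it the members took 0.528%, 0.389% and 0.383% of the counts at P14, against 0.389%, 0.401% and 0.333% at P1, where the groups overlapped. These are shares of library totals without TMM, to which the shift of −0.46 applies. With TMM the members together had 15151.7 to 16752.5 CPM at P14 and 7460.8 to 7993.6 CPM at P1. On that scale the members other than Slc25a4 also summed to more in every P14 library than in any P1 library.

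**Figure D1:**
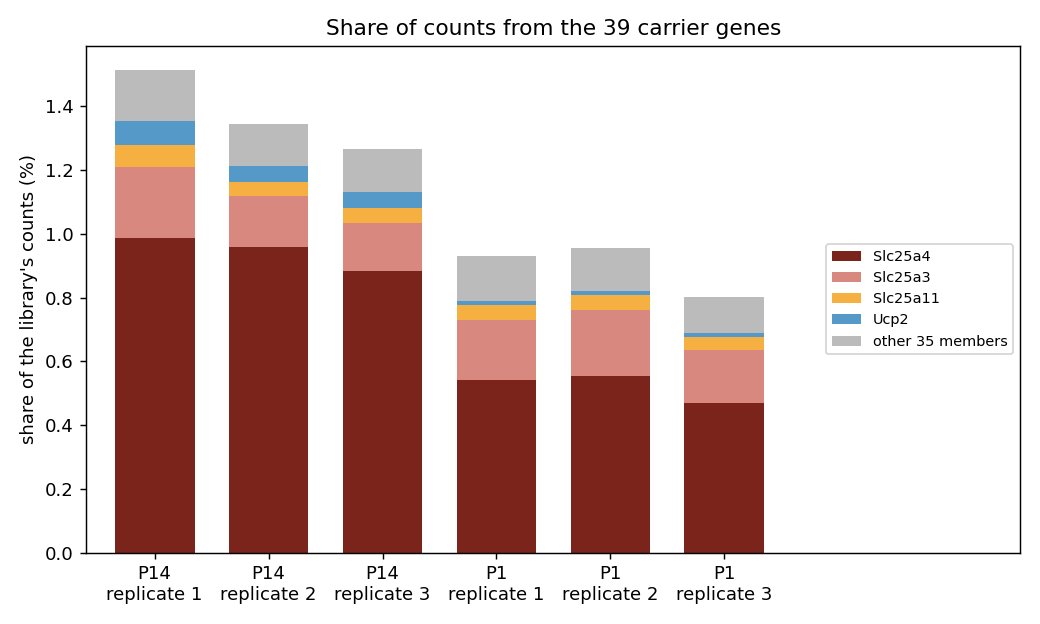
Share of each library's counts taken by the carrier family, in percent, with P14 libraries left of P1 libraries and the stacked bars split into Slc25a4, Slc25a3, Slc25a11, Ucp2 and the other 35 members. Slc25a4 made up 65.1% to 71.1% of the family's counts at P14 and 58.0% to 58.4% at P1.

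To set genes beside each other approximately, levels were divided by the length of the longest annotated coding transcript in kilobases. A gene that uses a shorter transcript is ranked too low by this measure, and which transcripts were used was not measured (the length taken for Ucp2 was 3988 bases). Slc25a4 was the highest member at both ages (5722 ± 265 CPM per kb at P14 and 2313 ± 98.9 at P1), followed by Slc25a3 (1286 ± 215 at P14 and 987 ± 48.5 at P1) and Slc25a11 (366 ± 73.8 at P14 and 224 ± 15.2 at P1). The ranks below these changed. Ucp2 had rank 4 at P14, at 169.5 ± 32.1 CPM per kb, and rank 9 at P1, at 27.9 ± 4.68. Slc25a34 had rank 8 at P14, at 69.4 ± 8.13 CPM per kb, and rank 18 at P1, at 6.27 ± 1.55. Slc25a5 had rank 7 at P14, at 74.5 ± 9.23 CPM per kb, and rank 4 at P1, at 101 ± 13.0. Its rank is uncertain, because most of its sequence is shared with other genes, as given below. Some neighbours in the order did not differ beyond their spread: at P14 Slc25a20 (121 ± 22.6) and Slc25a39 (116 ± 7.35), and Slc25a5 and Slc25a34; at P1 Slc25a39 (80.1 ± 30.6) and Slc25a20 (71.8 ± 20.0), and Slc25a12 (28.7 ± 1.79) and Ucp2.

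Among the carriers of ADP, ATP and phosphate, 1 of 3 rose and none fell. Slc25a4, the adenine nucleotide translocase of heart and skeletal muscle (GRCm38, chromosome 8, 46206797 to 46211284), had 10909, 11569.5 and 10564 CPM at P14, against 4357, 4329 and 4672 CPM at P1. All P14 libraries lay far above all P1 libraries, and the log2 fold change was 1.31 ± 0.20 (adjusted p = 1.17e-04, edgeR). Slc25a5, the translocase form found widely outside muscle (chromosome X, 36795651 to 36798807), had 103, 80.2 and 94.1 CPM at P14, against 134, 107 and 135 CPM at P1. The P14 libraries were all lower, but the log2 fold change of −0.44 ± 0.20 did not pass the test (adjusted p = 0.0826, edgeR). It passed without P1 replicate 2 (−0.54, adjusted p = 0.014, edgeR), with upper-quartile scaling (−0.50, adjusted p = 0.0438, edgeR) and with totals alone (−0.88, adjusted p = 0.00257, edgeR). With GC content and length corrected for it was −0.25 (adjusted p = 0.197, edgeR). Of the 36-base windows of Slc25a5 transcripts, 37.6% occurred in no other annotated gene, and the processed pseudogene Gm5560 shared 38.1% of them. The labels do not say how reads with several matches were counted, so the level of Slc25a5 is uncertain.

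Annotated exons of Slc25a10, Slc25a11, Slc25a23, Slc25a25, Slc25a26, Slc25a33, Slc25a35, Slc25a37, Slc25a46 and Ucp2 also overlap genes on the opposite strand, so that without strand information their counts may hold reads of a neighbour.

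The ratio of Slc25a4 counts to Slc25a5 counts, which does not depend on library scaling, was 106, 144 and 112 at P14, against 32.6, 40.6 and 34.5 at P1. The ratios did not overlap between the ages. Their absolute size carries the uncertainty of the Slc25a5 level given above and is not corrected for transcript length or GC content. The mean log2 ratio was 6.90 ± 0.24 at P14 and 5.16 ± 0.16 at P1 (SD, n = 3 each), a difference of 1.75, with a two-sided exact permutation p of 0.1, the smallest that 3 libraries against 3 allow.

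Slc25a3, the phosphate carrier (chromosome 10, 91116574 to 91124059), had 2468, 1936 and 1816 CPM at P14, against 1504, 1610.3 and 1657 CPM at P1. All P14 libraries were higher, by a log2 fold change of 0.38 ± 0.20 that did not pass the test (adjusted p = 0.143, edgeR). Its direction turned when totals alone set the scale (−0.07), and it passed when GC content and length were corrected for (0.60, adjusted p = 0.00355, edgeR). The carriers that exchange ATP-Mg for phosphate are a calcium-regulated group that sets the nucleotide content of the matrix. Of 3 tested, only Slc25a24 passed the test. It had 4.79, 3.19 and 3.73 CPM at P14, against 14.0, 15.6 and 11.1 CPM at P1, and fell without overlap (log2 fold change −1.79 ± 0.27, adjusted p = 1.17e-04, edgeR). Slc25a23 and Slc25a25 had log2 fold changes of −0.19 ± 0.18 and 0.37 ± 0.28.

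**Figure D2:**
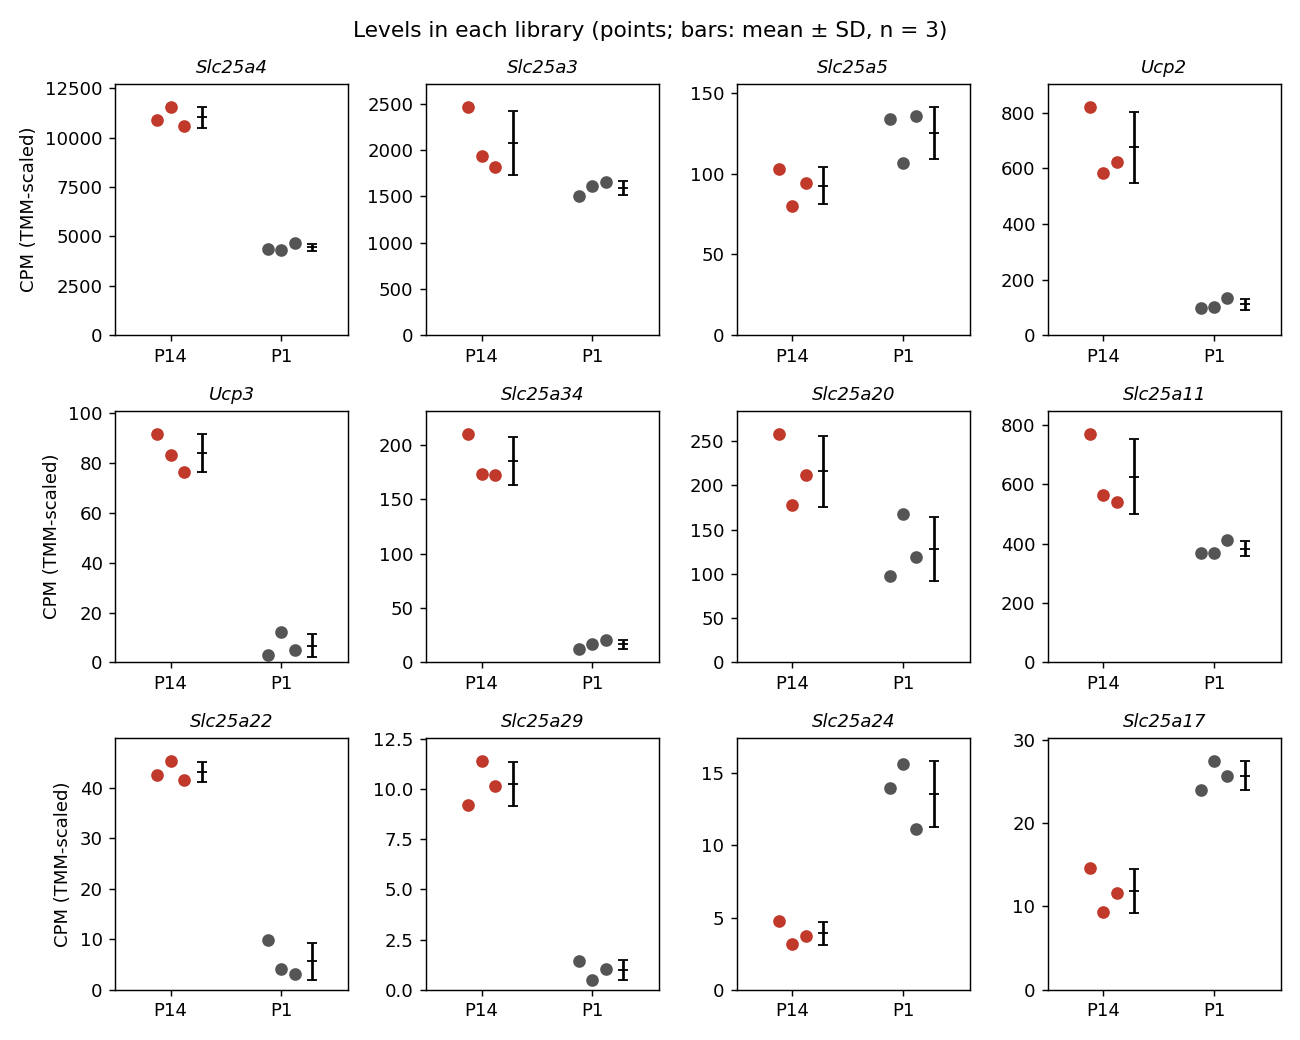
Levels of 12 members in CPM (TMM-corrected, linear axes from 0), with P14 libraries (red points) left of P1 libraries (grey points) and bars for the mean ± SD (n = 3 each). The P14 points of Ucp2, Ucp3, Slc25a34, Slc25a22 and Slc25a29 lie far above the P1 points, and those of Slc25a24 and Slc25a17 lie below them.

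The uncoupling proteins are inner-membrane carriers named for the proton leak that Ucp1 gives brown fat; Ucp1 was not analysed here. Ucp3, the form of skeletal muscle and heart (chromosome 7, 100472990 to 100486432), had 91.6, 83.1 and 76.4 CPM at P14, against 3.10, 12.01 and 5.05 CPM at P1. Its log2 fold change was 3.62 ± 0.43 (adjusted p = 1.38e-04, edgeR), and its P1 values rested on 67, 206 and 30 counts. The size depended on the P1 libraries: it was 4.47 without replicate 2 and 3.22 without replicate 1. Ucp2, which is also expressed in immune cells (chromosome 7, 100493337 to 100502020), had 822, 584 and 622 CPM at P14, against 99.0, 102 and 133 CPM at P1. It rose without overlap, by a log2 fold change of 2.60 ± 0.23 (adjusted p = 9.35e-07, edgeR). Macrophage markers moved with it: 9 of 11 tested rose and none fell, and their summed level was 327 to 380 CPM at P14 and 85.8 to 103 CPM at P1. Both lymphocyte markers tested rose as well and summed to 6.05 to 8.63 CPM at P14 and 2.19 to 2.86 CPM at P1. Of 2 brown adipocyte markers tested, Cidea rose (103 CPM at P14 and 30.4 CPM at P1). Dio2 went the other way, with all P14 libraries below all P1 libraries (1.57 CPM at P14 and 3.11 CPM at P1). Its log2 fold change of −1.01 did not pass the test (adjusted p = 0.0506, edgeR). The other markers of that list, Ucp1, Adipoq, Elovl3, Plin1, Cidec and Retn, were not analysed here. The part of these cells in the result was not tested.

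Ucp3 and Ucp2 lie on the same strand with 6904 bases between them. Of their 3 nearest relatives 1 fell and none rose: Slc25a30 fell (2.10 ± 0.697 CPM at P14 and 5.05 ± 0.651 CPM at P1, log2 fold change −1.30 ± 0.34, adjusted p = 0.00669, edgeR), and Slc25a14 and Slc25a27 had log2 fold changes of −0.41 ± 0.33 and 0.36 ± 0.27, which did not pass the test.

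Promoters are printed for the adjacent pair Ucp3 and Ucp2, which both rose, for Slc25a34, which rose most among the carriers of no settled substrate, and for the translocase pair Slc25a4 and Slc25a5. Each runs from 250 bases before to 50 bases after a RefSeq transcription start (GRCm38.p6), 5′ to 3′ on the gene's strand, with capitals marking AGGTCA, the core of many nuclear receptor sites, on either strand (read as TGACCT on the other) or TATAA. The windows are chr7:100472741-100473040 (plus strand) for Ucp3, chr7:100493108-100493407 (plus) for Ucp2, chr4:141623785-141624084 (minus) for Slc25a34, chr8:46211013-46211312 (minus) for Slc25a4 and chrX:36795347-36795646 (plus) for Slc25a5.
Ucp3: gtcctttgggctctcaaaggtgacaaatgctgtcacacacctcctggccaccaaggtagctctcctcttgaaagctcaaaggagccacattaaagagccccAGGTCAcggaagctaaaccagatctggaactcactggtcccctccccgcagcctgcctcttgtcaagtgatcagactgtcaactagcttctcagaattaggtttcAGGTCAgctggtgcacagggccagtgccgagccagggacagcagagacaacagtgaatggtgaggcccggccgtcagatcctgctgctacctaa
Ucp2: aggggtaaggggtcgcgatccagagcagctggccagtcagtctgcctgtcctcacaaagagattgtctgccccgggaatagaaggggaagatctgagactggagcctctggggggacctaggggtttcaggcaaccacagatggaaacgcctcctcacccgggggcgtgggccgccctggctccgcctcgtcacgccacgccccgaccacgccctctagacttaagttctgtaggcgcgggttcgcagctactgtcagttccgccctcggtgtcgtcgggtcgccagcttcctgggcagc
Slc25a34: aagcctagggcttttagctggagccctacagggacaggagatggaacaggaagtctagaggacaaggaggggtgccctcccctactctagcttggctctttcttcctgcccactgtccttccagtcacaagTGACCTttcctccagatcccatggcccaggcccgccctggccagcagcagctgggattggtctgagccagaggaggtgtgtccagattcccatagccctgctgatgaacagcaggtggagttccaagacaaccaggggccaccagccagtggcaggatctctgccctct
Slc25a4: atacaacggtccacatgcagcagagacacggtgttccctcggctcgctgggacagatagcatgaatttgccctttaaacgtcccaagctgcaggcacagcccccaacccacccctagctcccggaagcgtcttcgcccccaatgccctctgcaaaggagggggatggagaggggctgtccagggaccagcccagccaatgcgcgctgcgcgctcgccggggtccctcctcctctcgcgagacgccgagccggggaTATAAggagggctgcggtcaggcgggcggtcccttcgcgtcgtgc
Slc25a5: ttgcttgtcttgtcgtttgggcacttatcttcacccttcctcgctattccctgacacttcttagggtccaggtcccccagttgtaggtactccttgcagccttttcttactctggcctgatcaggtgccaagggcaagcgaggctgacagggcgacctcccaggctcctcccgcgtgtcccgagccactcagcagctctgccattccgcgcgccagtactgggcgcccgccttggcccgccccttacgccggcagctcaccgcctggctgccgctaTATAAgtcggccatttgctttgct

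The Ucp3 window held AGGTCA at 2 places, the Slc25a34 window held it once as TGACCT, and the Ucp2 window held neither motif. The windows of Slc25a4 and Slc25a5 each held TATAA. Both motifs were chosen after the sequences had been seen. Promoters were found for 31 of the 39 members, some with several starts. AGGTCA was in 5 of 39 promoters of members (12.8%), against 16.3% of all 32851 promoters in the table. By call it was in 4 of 17 promoters of members that rose, 0 of 5 of those that fell and 1 of 17 of those not called. The 4 include Ucp3 and Slc25a34, whose windows had been seen when the motif was chosen. TATAA was in 3 of 39 promoters of members, against 24.9% of all promoters. By call these were 1 of 17 that rose, 0 of 5 that fell and 2 of 17 not called. A match describes the letters of a window only.

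Of the carriers without a settled substrate, 4 of 5 rose and none fell. Slc25a34 (chromosome 4, 141618824 to 141623821) had 210.3, 174 and 172 CPM at P14, against 12.4, 17.3 and 20.5 CPM at P1. The lowest P14 library was far above the highest P1 library, and the log2 fold change was 3.48 ± 0.24 (adjusted p = 1.23e-07, edgeR). Its relative Slc25a35 had 12.9, 10.8 and 9.79 CPM at P14, against 7.26, 4.02 and 6.90 CPM at P1 (log2 fold change 0.90 ± 0.28, adjusted p = 0.0182, edgeR). The call was lost without P14 replicate 1 (adjusted p = 0.0722, edgeR). Of its 36-base windows, 27.4% were shared with Rangrf on the opposite strand. Slc25a45 averaged 9.83 ± 0.632 CPM at P14 and 4.56 ± 1.12 CPM at P1, with a log2 fold change of 1.11 ± 0.27 (adjusted p = 0.00448, edgeR). Slc25a47 averaged 6.35 ± 0.947 CPM at P14 and 2.73 ± 0.612 CPM at P1, with a log2 fold change of 1.24 ± 0.30 (adjusted p = 0.00422, edgeR). Slc25a46, an outer-membrane member tied to mitochondrial dynamics, had 50.7 ± 4.32 CPM at P14 and 47.7 ± 13.8 CPM at P1 and did not pass the test.

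The acylcarnitine carrier Slc25a20 (chromosome 9, 108662088 to 108684641) brings long-chain acylcarnitines to the matrix for fatty acid oxidation. It had 258, 178 and 211 CPM at P14, against 97.7, 167 and 119 CPM at P1. The highest P1 library was close to the lowest P14 library, and the log2 fold change was 0.75 ± 0.23 (adjusted p = 0.0169, edgeR). The call was lost with totals alone (0.29), and without P14 replicate 1, P1 replicate 1 or P1 replicate 3 (adjusted p = 0.0716, 0.0743 and 0.0551, edgeR). Of 5 other genes of carnitine transport and the shuttle (Cpt1a, Cpt1b, Cpt2, Crat and the plasma-membrane carnitine transporter Slc22a5), 3 rose and 1 fell. Cpt2, the inner-membrane transferase, had the largest rise of these (353 ± 41 CPM at P14 and 70.2 ± 11.8 CPM at P1, log2 fold change 2.33). Cpt1b, the muscle form of the outer transferase, had 789 CPM at P14 and 456 CPM at P1, while Cpt1a, the liver form, fell (57.5 ± 3.27 CPM at P14 and 104 ± 22.5 CPM at P1, −0.85).

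Aspartate and glutamate carriers rose in 2 of 3 cases. Slc25a22, a glutamate carrier (chromosome 7, 141429744 to 141437892), had 42.4, 45.3 and 41.5 CPM at P14, against 9.85, 4.08 and 3.03 CPM at P1, a log2 fold change of 2.85 ± 0.35 (adjusted p = 4.83e-05, edgeR). The P14 libraries were close together and all far above P1, and without P1 replicate 1 the log2 fold change was 3.55. Slc25a12, the aspartate-glutamate carrier of muscle and brain, had 269, 244 and 245 CPM at P14, against 193, 170.1 and 184 CPM at P1. The groups did not overlap, but its log2 fold change of 0.47 ± 0.18 lay at the threshold (adjusted p = 0.04997, edgeR), and the call was lost with the replicate number as a block (adjusted p = 0.0686, edgeR), with totals alone (0.02), with upper-quartile scaling, without mitochondrial genes, and without any library other than P1 replicate 2. Slc25a13, the second aspartate-glutamate carrier, had 74.5 ± 5.16 CPM at P14 and 54.6 ± 8.52 CPM at P1 (adjusted p = 0.0745, edgeR), and passed without P1 replicate 2 (adjusted p = 0.0174, edgeR).

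Of the carriers of di- and tricarboxylates, 1 of 3 rose and 1 fell. Slc25a11, which exchanges malate for oxoglutarate in the malate-aspartate shuttle, had 771, 564 and 542 CPM at P14, against 368, 369 and 414 CPM at P1 (log2 fold change 0.71 ± 0.21, adjusted p = 0.0129, edgeR). All P14 libraries were higher. With totals alone the value was 0.26 (adjusted p = 0.402, edgeR), and without P14 replicate 1 the adjusted p was 0.0538. Slc25a1, the citrate carrier that feeds cytosolic lipid synthesis, had 8.30, 8.63 and 5.80 CPM at P14, against 13.1, 9.74 and 14.8 CPM at P1, and fell (−0.71 ± 0.26, adjusted p = 0.0394, edgeR); the call was lost without any library other than P1 replicate 2, and with voom (adjusted p = 0.0524, limma). Slc25a10, the dicarboxylate carrier, had 17.5, 14.9 and 13.7 CPM at P14, against 29.4, 6.996 and 24.4 CPM at P1. P1 replicate 2 lay below every P14 library and the other P1 libraries above, and without it the log2 fold change was −0.81 (adjusted p = 0.00298, edgeR), against −0.39 ± 0.44 with it. Among 7 enzymes of the malate-aspartate and glycerophosphate shuttles, 5 rose and none fell, among them Mdh2 (2967 ± 311 CPM at P14 and 1451 ± 349 CPM at P1, log2 fold change 1.03) and Gpd1 (95.2 ± 15.6 CPM at P14 and 10.4 ± 3.37 CPM at P1, 3.21).

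**Figure D3:**
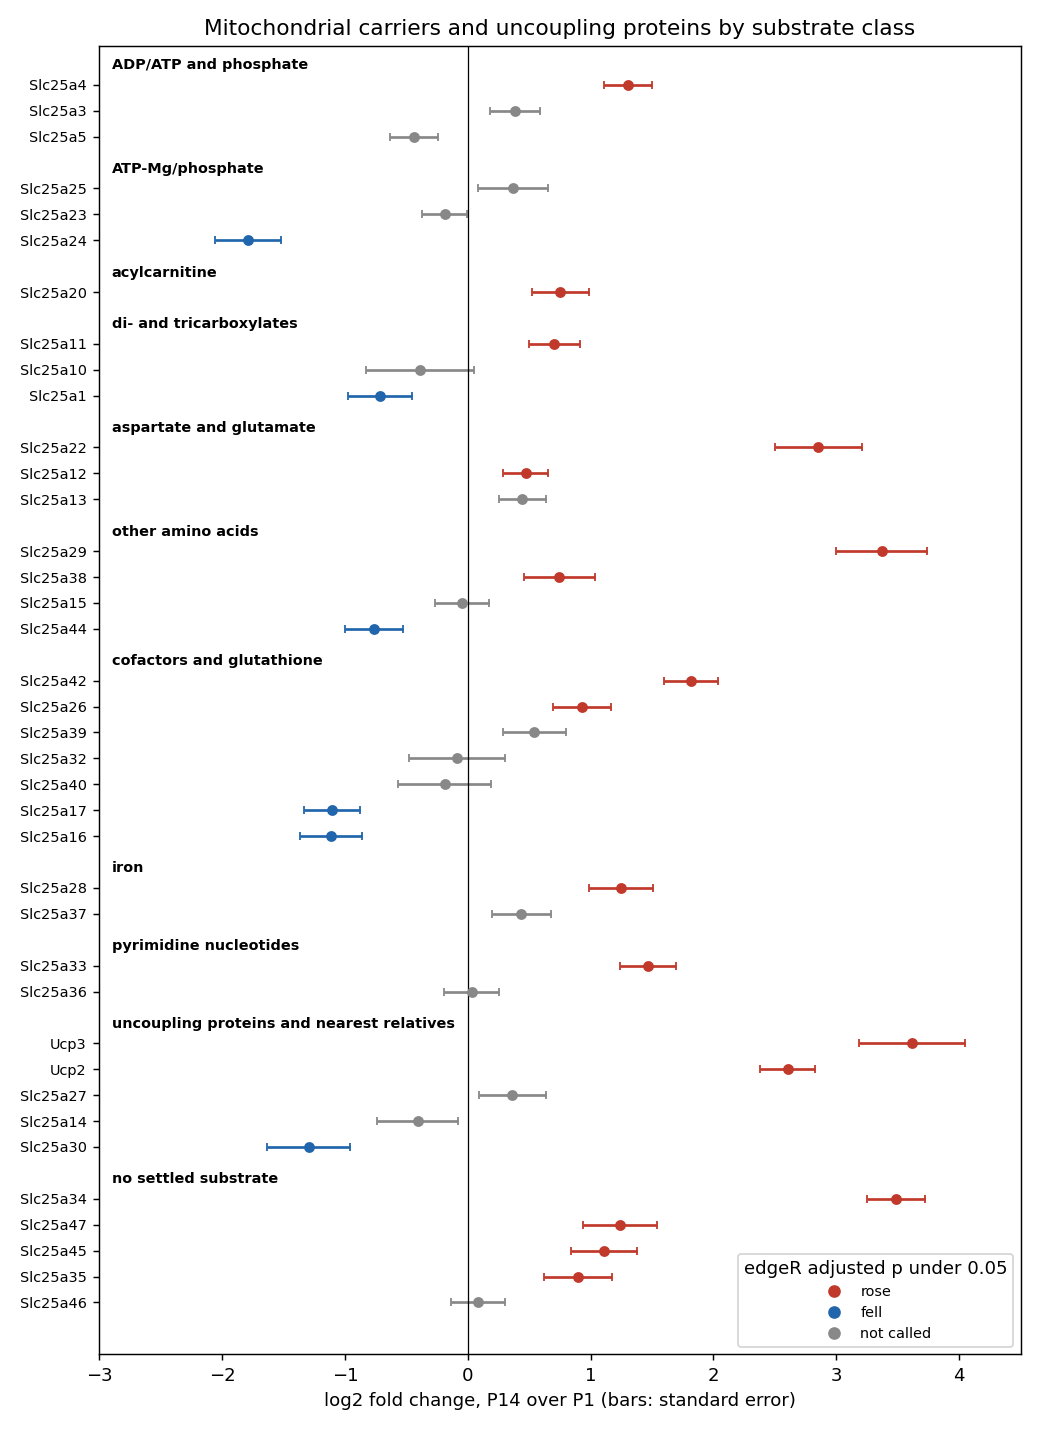
Log2 fold change (P14 over P1) of each member reported with its SE as bars, grouped by substrate class, with members that rose in red, those that fell in blue and those not called in grey. Ucp3, at 3.62, Slc25a34, at 3.48, and Slc25a29, at 3.37, lie farthest to the right, and Slc25a24, at −1.79, farthest to the left.

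Of the carriers of other amino acids, 2 of 4 rose and 1 fell. Slc25a29, a carrier of basic amino acids (chromosome 12, 108825873 to 108835883), had 9.22, 11.4 and 10.2 CPM at P14, against 1.43, 0.466 and 1.01 CPM at P1, which came from 31, 8 and 6 counts. The groups were far apart, with a log2 fold change of 3.37 ± 0.37 (adjusted p = 7.91e-06, edgeR), which was 3.98 without P1 replicate 1 and 2.96 without P1 replicate 2. Slc25a47 starts 162 bases away on the opposite strand, and both genes rose. Slc25a38, a glycine carrier needed for haem synthesis, had 19.3, 22.0 and 15.5 CPM at P14, against 15.8, 6.94 and 10.9 CPM at P1. The groups overlapped, and its log2 fold change was 0.75 ± 0.29 (adjusted p = 0.048, edgeR). The call was lost in edgeR with DESeq2 size factors, upper-quartile scaling and totals alone (adjusted p = 0.0514, 0.0631 and 0.436, edgeR). It was also lost with the filter at 5 CPM, and without any library other than P1 replicate 1 (adjusted p = 0.0546 to 0.170, edgeR). The DESeq2 fit, with its own size factors, kept it (adjusted p = 0.0435, DESeq2). Slc25a44, a carrier of branched-chain amino acids, had 15.2, 9.56 and 14.0 CPM at P14, against 21.7, 19.9 and 24.9 CPM at P1, and fell (−0.77 ± 0.23, adjusted p = 0.0169, edgeR). Its call was lost without P14 replicate 2 (adjusted p = 0.102, edgeR) and without P1 replicate 3 (adjusted p = 0.0686, edgeR). Slc25a15, the ornithine carrier, had a log2 fold change of −0.05 ± 0.22.

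Carriers of cofactors and glutathione were split, with 2 of 8 rising and 2 falling. Slc25a42, a carrier of coenzyme A and adenine nucleotides, had 40.8, 47.7 and 48.7 CPM at P14, against 10.1, 15.0 and 14.0 CPM at P1, and rose without overlap (1.82 ± 0.22, adjusted p = 1.85e-05, edgeR). Slc25a26, the S-adenosylmethionine carrier, averaged 20.5 ± 3.39 CPM at P14 and 10.6 ± 1.97 CPM at P1 and rose (0.93 ± 0.24). Slc25a16, a member linked to coenzyme A, had 6.12, 8.50 and 8.76 CPM at P14, against 14.2, 19.9 and 16.0 CPM at P1, and fell (−1.11 ± 0.25, adjusted p = 0.00249, edgeR). Slc25a17, a peroxisomal carrier of coenzyme A and other cofactors, had 14.6, 9.29 and 11.6 CPM at P14, against 24.0, 27.5 and 25.6 CPM at P1, and fell by the same log2 amount (−1.11 ± 0.23, adjusted p = 0.00139, edgeR). Neither of these falling members had overlapping groups. Slc25a39, a glutathione carrier, had 210.5, 189 and 189 CPM at P14, against 181, 79.3 and 145 CPM at P1; P1 replicate 2 was far lower than the other P1 libraries, and the log2 fold change of 0.54 ± 0.26 did not pass the test (adjusted p = 0.104, edgeR). It passed with the replicate number as a block (0.62, adjusted p = 0.019, edgeR) and without P1 replicate 1 (0.81, adjusted p = 0.0188, edgeR). It was 0.27 without P1 replicate 2 (adjusted p = 0.214, edgeR), 0.10 with totals alone, 0.04 with GC content and length corrected for (adjusted p = 0.817, edgeR) and 0.05 with that correction and the block. Slc25a32, a carrier of flavin or folate, and Slc25a40, a relative of Slc25a39, stayed under 4 CPM on average at both ages (3.16 ± 0.690 and 3.62 ± 1.27 CPM at P14, 3.24 ± 1.88 and 3.92 ± 1.80 CPM at P1) and did not pass the test. Markers of dividing cells fell in 6 of 6 cases and summed to 19.1 to 36.7 CPM at P14 and 324 to 355 CPM at P1; their part in the falls of Slc25a24, Slc25a16 and Slc25a17 was not tested.

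The 2 iron carriers, the mitoferrins, supply iron for haem and iron-sulfur clusters. Slc25a28, the form found in most tissues, had 37.8, 57.5 and 38.8 CPM at P14, against 21.5, 12.3 and 22.9 CPM at P1, and rose without overlap (1.25 ± 0.26, adjusted p = 0.00163, edgeR). With GC content and length corrected for, its log2 fold change was 0.65, and 0.62 with the block added. Slc25a37, the erythroid form, had 15.5, 21.1 and 17.4 CPM at P14, against 10.3, 16.6 and 12.8 CPM at P1; the groups overlapped and it did not pass the test (0.44 ± 0.24, adjusted p = 0.161, edgeR), but did without P1 replicate 2 (adjusted p = 0.0246, edgeR). Of 6 other genes of iron use, 3 rose and none fell, including Alas1, the haem synthesis enzyme of most tissues (299.8 ± 42.8 CPM at P14 and 98.4 ± 12.1 CPM at P1), and Alas2, its erythroid form (157 ± 29.3 CPM at P14 and 63.4 ± 22.1 CPM at P1). Erythroid markers rose in 8 of 9 cases and summed to 3326 to 4088 CPM at P14 and 570 to 1052 CPM at P1, with Gata1, Klf1 and Ahsp not analysed here; their part in the values of Slc25a28, Slc25a37 and Slc25a38 was not tested. Of the pyrimidine nucleotide carriers, Slc25a33 had 29.5, 27.4 and 21.8 CPM at P14, against 10.4, 7.87 and 10.3 CPM at P1, and rose without overlap (1.47 ± 0.23, adjusted p = 1.66e-04, edgeR). Slc25a36 had a log2 fold change of 0.03 ± 0.23.

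Other transport proteins of the mitochondrial membranes gave a background for the family. Of 17 genes of inner-membrane carriers and channels outside SLC25, regulators included, 5 rose and 1 fell, and the median over the list was 0.42 on the log2 scale. Mpc2, a subunit of the pyruvate carrier, rose (428.5 ± 54.6 CPM at P14 and 167 ± 32.4 CPM at P1, 1.36 ± 0.21), as did Letm1, a cation exchanger (134 ± 11.3 CPM at P14 and 56.6 ± 8.94 CPM at P1, 1.25), whereas the serine carrier Sfxn1 fell (9.16 ± 0.578 CPM at P14 and 17.1 ± 2.28 CPM at P1, −0.90). Of 6 genes of outer-membrane channels and carrier relatives, the relatives Mtch1 and Mtch2 among them, none rose. Vdac2, a porin, fell (343 ± 47.2 CPM at P14 and 496 ± 46.5 CPM at P1, −0.53). Among 4 partners of ADP and ATP exchange, 2 rose: Ckmt2, the mitochondrial creatine kinase of striated muscle (2704 ± 198 CPM at P14 and 275 ± 13.1 CPM at P1, 3.30 ± 0.21), and Ppif, the cyclophilin of the permeability pore (200.4 ± 46.4 CPM at P14 and 133 ± 25.6 CPM at P1, 0.59).

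The log2 fold change of members went with the GC content of their transcripts. Across the 39 members Spearman's rho was 0.54, and across 14128 genes it was 0.26; genes share libraries and are not independent replicates. The median GC content was 54.2% in members that rose, 45.3% in those that fell and 48.5% in those not called. Libraries of 1 age also differed by GC. Among the P14 libraries, replicate 3 had the lowest value for 13 of the 22 members with GC above 50% and replicate 1 the highest for 13. For the 17 members with GC under 50%, replicate 3 had the lowest value for 3. Replicate 1 had the highest value for 8 of these and the lowest for 7, so its high values were not confined to high GC. Among the P1 libraries, replicate 2 had the lowest value for 15 of the 22 members with GC above 50%, and the highest value for 10 of the 17 with GC under 50%. Correction for GC content and length kept 22 of the 23 calls, losing Slc25a38 (adjusted p = 0.0556, edgeR), and added rises of Slc25a3, Slc25a13, Slc25a37 and Slc25a46 and falls of Slc25a10 and Slc25a23. Calls over all genes grew as well with that correction, to 3836 higher and 3609 lower, from 3115 and 3149 without it. With totals alone, 9 members rose; the calls of Slc25a11, Slc25a12, Slc25a20, Slc25a26, Slc25a35, Slc25a38, Slc25a45 and Slc25a47 were lost, falls of Slc25a5 (−0.88) and Slc25a23 (−0.64) were added, and the all-gene calls were 1620 higher and 5592 lower, against 3115 higher and 3149 lower with TMM. The members' median minus that of all genes was 0.45 with TMM and 0.44 with totals alone.

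**Figure D4:**
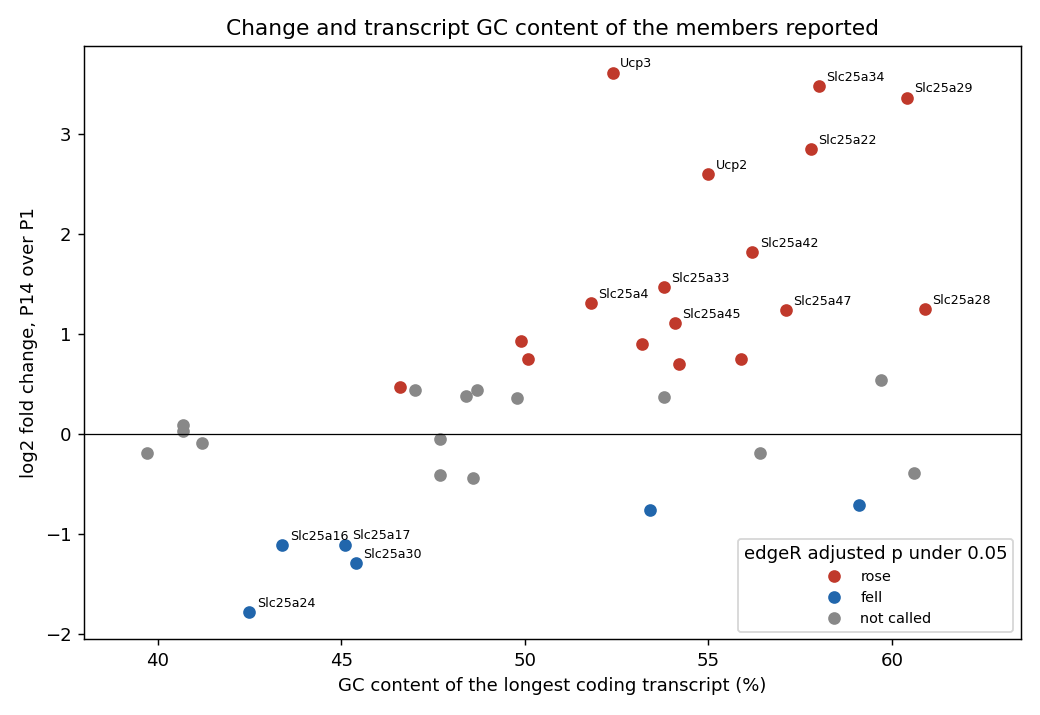
Log2 fold change (P14 over P1) of each member reported against the GC content of its longest coding transcript in percent, with members that rose in red, those that fell in blue and those not called in grey. Members that rose lie mostly at higher GC (median 54.2%) than those that fell (45.3%).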

How the data were processed

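RNA-seq counts per gene were deposited by the authors as whole numbers, one column per library, with no normalization; per the submitters' processing notes, bedtools, edgeR 3.2.4 and the builds GRCm38 and mm10 were used, in roles that are not stated. For the aligner, the strand setting and the annotation: not given in the sources used here. Counts were fitted with edgeR 4.0.16 in R 4.3.3 (TMM, filterByExpr with a minimum count of 10, robust quasi-likelihood F-test, Benjamini-Hochberg adjustment over 14301 genes, threshold 0.05). Limma 3.58.1 voom and DESeq2 1.42.0 were alternatives, with other scalings, filters, thresholds and each library left out; a correction for GC content and length was added after seeing the data. Positions and names came from GENCODE M21 (GRCm38), which held 98.8% of the gene IDs, and promoters from RefSeq. The fit was tested on simulated data. The members, classes and gene lists were chosen with earlier results of these data known. Per-library values are given for Slc25a3, Slc25a4, Slc25a5, Slc25a20, Ucp2 and Ucp3 and, per class, for up to 3 called members with the largest fold change among those at 10 CPM or more at either age; those of Slc25a10, Slc25a37 and Slc25a39 were added after their values were seen. Libraries with the same replicate number deviated together (correlations 0.295, 0.112 and 0.102, against −0.214 to 0.09 for other pairs), so the number pairs them by the rule used. That pairing was weak: only replicate 1 stood clearly apart, and 0.112 and 0.102 were close to the highest other pair. What the number stands for is not given. The main fit left it out, and the fit with it as a block was an alternative. Pools are the replicates, and p-values measure the spread between them. A single member enters the counts and summed values but is not reported here by itself. No pair of libraries agreed within sampling noise: the chi-square per degree of freedom between P14 libraries was 89.9 and 119 for replicate 1 against replicates 2 and 3, and 12.0 between those 2, and between P1 libraries it was 91.2 to 178.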

Additional observations from a re-analysis of the deposited data

How the results depend on the processing

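With totals alone 9 members rose, and with a test against a 1.5-fold change 11 rose; over all genes 3403 passed that test and 4135 passed an adjusted p under 0.01, against 6264 in all. Leaving out each library in turn gave 12 to 18 rises, 4 to 8 falls and 4656 to 6710 calls over all genes, and a Slc25a4 to Slc25a5 log2 ratio difference of 1.61 to 1.84. With the replicate block, 18 members rose and 6 fell, 6996 genes passed, 22 of the 23 calls were kept (Slc25a12 was lost), and the ratio difference was 1.75. No called member reversed in the 17 alternatives that kept the threshold, and 13 of the 23 kept their call in all of those. Reversed values were all of members that had not passed. With totals alone these were Slc25a13 −0.032, Slc25a27 −0.115, Slc25a46 −0.39, Slc25a25 −0.085, Slc25a36 −0.447, Slc25a37 −0.039 and Slc25a3 −0.066, and with upper-quartile scaling Slc25a36 −0.036. With the replicate block Slc25a32 was 0.023. With the GC and length correction Slc25a32 was 0.226, Slc25a15 0.237 and Slc25a40 0.167, and with the block added 0.266, 0.229 and 0.144 in that order. Leaving out 1 library at a time gave −0.343 to 0.402 for Slc25a32, −0.081 to 0.346 for Slc25a46, −0.814 to 0.025 for Slc25a10, −0.096 to 0.03 for Slc25a15, −0.139 to 0.193 for Slc25a36 and −0.43 to 0.235 for Slc25a40. The cause was not tested. Depth limits Slc25a29 most, with 6 counts in its lowest library.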

Other observations

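A pair of family genes fell outside the symbol rule because the table gives them older names. Mcart6, which the annotation now names Slc25a53, had 1.66 ± 0.302 CPM at P14 and 3.42 ± 0.631 CPM at P1 and fell (log2 fold change −1.06 ± 0.35, adjusted p = 0.0235, edgeR). Mcart1, now Slc25a51, a carrier of NAD, had 41.6 ± 3.82 CPM at P14 and 56.0 ± 7.73 CPM at P1 (−0.43 ± 0.19, adjusted p = 0.0887, edgeR). Slc25a31, Slc25a41, Slc25a21, Slc25a18, Slc25a2, Slc25a43, Slc25a48 and Ucp1 had no row under those names in the count table and were not analysed here.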
